A study of Mus musculus with 12 samples.

Results

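A set of 343 promoter peaks separated the stromal cells of gut-draining mesenteric lymph nodes (mLN) from those of skin-draining peripheral lymph nodes (pLN) in an ATAC-seq data set of mouse lymph nodes. ATAC-seq measures accessible chromatin by the insertion of a transposase, and a peak is a stretch of the genome where such insertions pile up. Of 42424 distinct peaks in the deposited table, 12340 autosomal peaks lay within 1 kb of the transcription start site (TSS) of a protein-coding gene (GRCm38 genome, GENCODE vM21 transcripts). From these, the members were selected on 2 properties of the node contrast itself: the values of the 6 mLN and 5 pLN libraries did not overlap, and the mean log2(RPKM + 1) of the nodes differed by at least 0.6. RPKM counts the reads of a peak for its length in kilobases and for the reads of its library. The rule held 164 peaks of 160 genes that were higher in mLN, 1.33% of the autosomal promoter peaks, and 179 peaks of 174 genes that were higher in pLN, 1.45%. Since the node difference chose the peaks, every node value given here is a description with no test, in SPF and in GF mice alike.

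The cells were sorted as CD45- CD24- CD31- Pdpn+ (gp38+) non-endothelial stromal cells from small intestinal and colon or caecum draining mLN or from inguinal and axillary or popliteal pLN. The labels give BALB/c for every mouse, kept specific pathogen-free (SPF, 7 to 12 weeks old) or germ-free (GF, 6 to 10 weeks old), with 3 libraries each of mLN-SPF, pLN-SPF and mLN-GF and 2 usable libraries of pLN-GF. The SPF mice were of a CD90.1 line according to the methods, and the GF mice were derived by caesarean section at another facility, so housing cannot be told apart from colony, line or age range. No transgene or deletion is named for these samples, the mice were female unless stated otherwise, and the study reports independent experiments for bulk sequencing replicates without tying libraries to animals, so that p-values measure the spread between these samples. The tissue label of the pLN samples reads skin-draining mesenteric, whereas their titles and the isolation protocol name pLN.

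Lymph node stroma forms the scaffold on which lymphocytes migrate and meet. Reticular cells of the T zone and the follicles secrete chemokines, while CD34+ stromal cells lie in the capsule and around larger vessels. A promoter at the 5′ start of a gene carries the site where RNA polymerase assembles. Promoters rich in CpG are usually open in most cell types, whereas CpG-poor promoters more often open in particular cells. Mesenchyme of different body regions keeps different sets of homeobox and T-box transcription factors from the embryo, which makes such genes markers of position.

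The upstream sequences of members with large differences are printed here because they lie upstream of transcript starts of positional transcription factor genes. That of Tbx15 belongs to an alternative transcript, and the others to the 5′ start of the gene. Each is the 200 bases before the annotated TSS, read 5′ to 3′ along the gene from the RefSeq GRCm38.p6 genome. Capitals mark short promoter motifs on either strand. One is the TATA box, searched as TATAAA. The CCAAT box was searched by the letters of its name. The GC box, which SP and KLF factors bind, was searched as GGGCGG.
Nkx2-3: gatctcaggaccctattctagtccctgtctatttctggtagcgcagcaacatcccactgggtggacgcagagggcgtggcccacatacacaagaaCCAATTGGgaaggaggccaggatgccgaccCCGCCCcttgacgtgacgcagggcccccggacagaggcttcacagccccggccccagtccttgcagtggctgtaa
En1: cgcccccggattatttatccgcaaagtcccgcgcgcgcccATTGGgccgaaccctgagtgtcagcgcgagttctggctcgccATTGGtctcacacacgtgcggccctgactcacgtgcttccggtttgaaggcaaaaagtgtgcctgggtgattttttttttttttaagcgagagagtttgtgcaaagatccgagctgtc
Tbx15: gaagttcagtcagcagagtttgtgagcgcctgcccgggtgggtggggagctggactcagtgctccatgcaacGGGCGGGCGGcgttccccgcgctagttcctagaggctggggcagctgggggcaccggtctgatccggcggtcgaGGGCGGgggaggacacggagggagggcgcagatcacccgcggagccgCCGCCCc
Emx2: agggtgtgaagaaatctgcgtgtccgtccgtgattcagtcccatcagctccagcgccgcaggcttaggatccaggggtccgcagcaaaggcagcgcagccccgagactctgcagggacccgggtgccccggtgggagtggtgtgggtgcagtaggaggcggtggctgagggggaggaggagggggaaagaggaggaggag
The Nkx2-3 window (chr19:43612125-43612324, plus strand) lay wholly inside its peak and held 9 CpG. It had overlapping CCAAT boxes on both strands, at positions -105 and -102 from the TSS, and a GC box at -75. On the pLN side, the En1 window (chr1:120602218-120602417, plus strand) held 17 CpG and CCAAT boxes at -160 and -118, and the Tbx15 window (chr3:99253560-99253759, plus strand) held 19 CpG and 4 GC boxes. The Emx2 window (chr19:59458172-59458371, plus strand) had 11 CpG and none of these letters. Over all distinct start sites of members, the upstream 200 bases held a TATA box at 7.4% of 163 sites of members higher in mLN and 8.5% of 177 sites of members higher in pLN, against 4.2% of 12162 sites of all promoter peaks. For the GC box the shares were 32.5%, 32.8% and 60.1%, and for the CCAAT box 27.0%, 34.5% and 30.6%. A match describes the letters of the window and nothing about a bound factor.

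Depth and the behaviour of single libraries bear on all of these peaks. The libraries held 2886129 to 10380493 reads in peaks, which gave a median of 41 to 143 reads per member and library. Both mLN libraries numbered 2 lay nearer to pLN than the other mLN libraries. On a scale where the pLN mean is 0 and the mLN mean is 1, the median member higher in mLN stood at 0.839 in mLN-SPF replicate 2 and 0.844 in mLN-GF replicate 2, against 1.006 to 1.131 in the other mLN libraries. For members higher in pLN, these were 0.740 and 0.755 against 0.883 to 1.14. One of these libraries was the lowest mLN library at 102 of the 164 peaks higher in mLN and the highest at 110 of the 179 peaks higher in pLN. Among pLN libraries, pLN-SPF replicate 3 most often lay closest to mLN, at 71 and 73 peaks. Because one library can break the separation, leaving these libraries out lengthened the lists. Without both mLN libraries numbered 2 the rule gave 311 and 264 peaks, 161 and 175 of them members. Without pLN-SPF replicate 3 it gave 271 and 228 peaks, whereas without mLN-GF replicate 3 the list higher in pLN fell to 173.

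**Figure D1:**
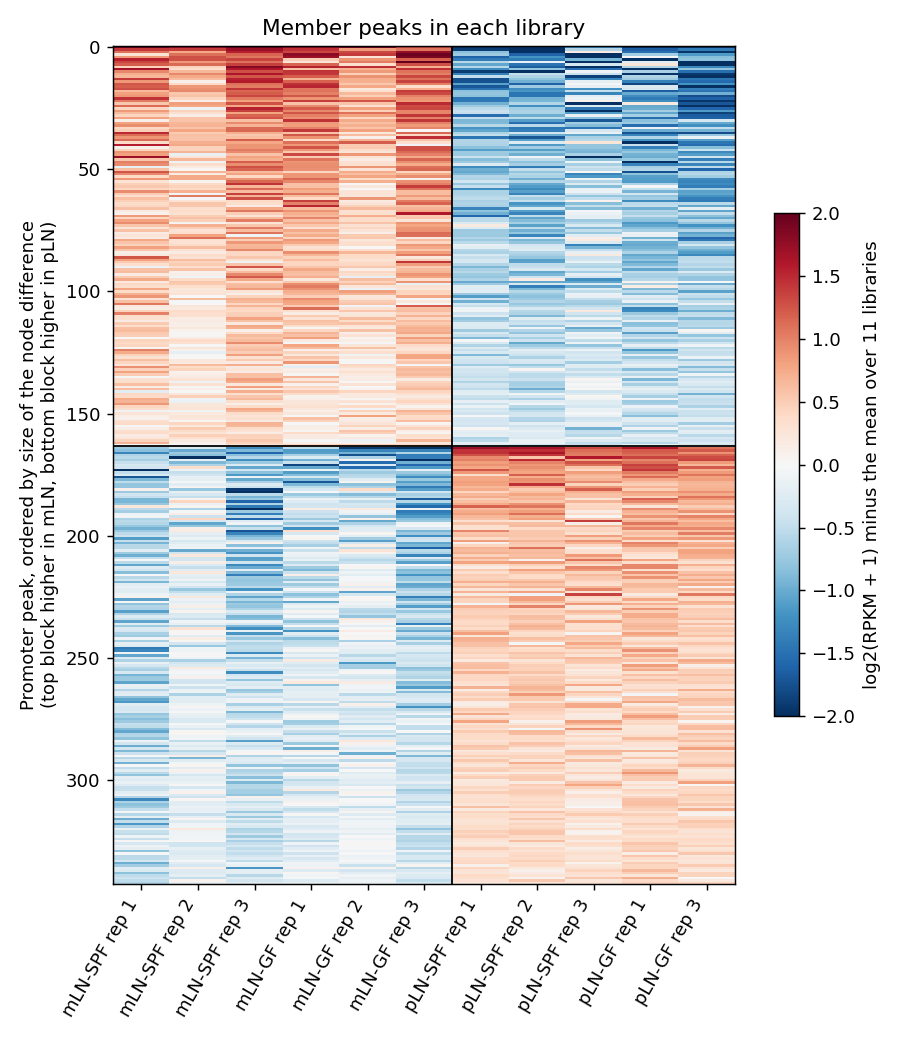
Rows are the 343 member peaks, ordered by the size of the node difference within the 164 higher in mLN (top) and the 179 higher in pLN (bottom), and columns are the 11 libraries; color gives log2(RPKM + 1) minus the row mean, from -2 (blue) to 2 (red). Both mLN libraries numbered 2 are paler than the other mLN libraries in either block.

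Promoter peaks higher in mLN had the larger differences. Their median difference was 1.17 on the log2(RPKM + 1) scale, with 108 of 164 at 1 or more and 22 at 2 or more, and the median over all promoter peaks, in either direction, was 0.172. For peaks higher in pLN the median size was 0.857, with 58 of 179 at 1 or more and 6 at 2 or more. In the lower node, 55 of the peaks higher in mLN but 15 of those higher in pLN stayed under 10 RPKM. The lowest library of the higher node exceeded the highest library of the lower node by a median of 1.25-fold in members higher in mLN and 1.18-fold in members higher in pLN, and at least 2-fold in 13 and 8. The threshold cut through a continuum. Just inside it on the mLN side were Trim9 (0.613), Zmym4 (0.614) and Tnfrsf12a (0.616), and just outside Heatr6 (0.599), Abca8b (0.591) and Dlg4 (0.591). Toward pLN, Pon2 (-0.601), Gbp6 (-0.602) and Dab1 (-0.603) were inside and Fap (-0.598), Nrde2 (-0.591) and Hhip (-0.591) outside. Without a minimum difference, 261 and 382 promoter peaks were separated.

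The positional transcription factors led both lists. Nkx2-3, a homeobox gene needed for the stroma of spleen and gut lymphoid tissue, had the largest difference toward mLN. Its peak (chr19:43612120-43612503) covers the TSS and the sequence shown above. It measured 79.5, 65.2 and 76.2 RPKM in the mLN-SPF libraries, 66.0, 71.6 and 48.2 in mLN-GF, 3.0, 1.7 and 6.8 in pLN-SPF and 3.4 and 4.1 in pLN-GF. Every mLN library was far above every pLN library, and the node means were 67.8 ± 11.1 (SD, n = 6) and 3.8 ± 1.9 (n = 5), a difference of 3.91. Of the 4 distal peaks nearest to Nkx2-3, 2 met the same rule toward mLN and none toward pLN.

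Tcf21, a basic helix-loop-helix gene of visceral mesenchyme, came next. Its promoter (chr10:22819969-22820354) had 47.4, 46.7 and 59.3 RPKM in mLN-SPF, 49.2, 31.8 and 37.2 in mLN-GF, 4.0, 2.5 and 11 in pLN-SPF and 4.8 and 5.9 in pLN-GF. The highest pLN value was that of pLN-SPF replicate 3, and the difference was 2.90. Isl1, a LIM homeobox gene of heart and hindlimb progenitors (chr13:116309452-116310116), had 29.8, 17.2 and 49.8 RPKM in mLN-SPF, 37.3, 26.6 and 41.9 in mLN-GF, 4.0, 7.7 and 13.8 in pLN-SPF and 5.6 and 4.7 in pLN-GF. The gap was narrow there, between mLN-SPF replicate 2 and pLN-SPF replicate 3, although the means differed by 2.13. Wt1, a zinc finger gene of the mesothelium and kidney (chr2:105126181-105127225), was tighter, with 46.1 to 60.9 RPKM over the mLN libraries and 9.8 to 18.1 over the pLN libraries (difference 1.78), and 5 of its 8 distal peaks met the rule toward mLN. Sox11, a SOX gene of embryonic progenitors, differed by 1.62 and Rorb, an orphan nuclear receptor gene, by 0.88. The zinc finger genes Zbtb43 (1.14), Zbtb38 (1.13), which binds methylated DNA, and Prdm8 (0.81) were the other genes on the transcription factor lists that were higher in mLN. Tcf23 (1.06), a basic helix-loop-helix gene on none of the lists and named after its value was seen, was higher in mLN too.

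Toward pLN, En1, the engrailed homeobox gene of limb and dermal patterning, had the largest difference (chr1:120602001-120602535). It measured 8.0, 11 and 5.3 RPKM in mLN-SPF, 9.4, 2.9 and 1.3 in mLN-GF, 48.9, 45.7 and 36.0 in pLN-SPF and 45.0 and 30.8 in pLN-GF. All mLN libraries stayed low, and the means were 6.3 ± 3.8 (n = 6) and 41.3 ± 7.5 (n = 5), a difference of -2.72. Tbx15, a T-box gene that patterns dermis and limb skeleton, had 2 member peaks, at different transcript starts. The stronger (chr3:99253023-99254040) had 11.8, 10.5 and 11.4 RPKM in mLN-SPF, 9.6, 8.2 and 8.1 in mLN-GF, 62.0, 63.1 and 48.8 in pLN-SPF and 53.1 and 52.8 in pLN-GF. Its difference was -2.38, that of the peak at the 5′ start of the gene was -1.85, and all 6 distal peaks nearest to Tbx15 met the rule toward pLN. Of the 7 nearest to En1, 2 met it toward pLN and 1 toward mLN.

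Emx2, a homeobox gene of the urogenital tract and shoulder girdle, had a wide peak (chr19:59457414-59458784) with 13.5, 11.3 and 11.3 RPKM in mLN-SPF, 13.1, 5.6 and 7.5 in mLN-GF, 52.3, 58.3 and 44.3 in pLN-SPF and 46.2 and 48.6 in pLN-GF. The nodes were far apart in either housing (difference -2.21). Shox2, a homeobox gene of the proximal limb (chr3:66980982-66982312, a peak that also lies within 1 kb of a TSS of Rsrc1), had 9.7 to 15.6 RPKM over the mLN libraries and 39.0 to 46.8 over the pLN libraries (difference -1.60). Other homeobox members were smaller in difference, Hoxd3 (-0.94), Irx2 (-0.86), Hoxd11 (-0.75) and Meox2 (-0.66), genes of limb, axial and mesoderm patterning. Tbx18, a T-box gene of epicardium and mural cells, had 15 to 22.3 RPKM in mLN and 42.5 to 49.5 in pLN (difference -1.29), and 6 of its 11 distal peaks met the rule toward pLN. Also higher in pLN were Twist1, a bHLH gene of mesenchyme (-1.11), Smad3, a transducer of TGF-beta signals (-1.04), Tfeb, a regulator of lysosome genes (-1.0), and Spib, an ETS factor gene known from B cells and M cells (-0.65). Over the homeobox list, 2 (2.41%) of 83 promoter peaks were members toward mLN and 8 (9.64%) toward pLN, with a median difference of 0.018. For the T-box list these were 0 and 3 of 6 peaks. The transcription factor lists, without that of KRAB and other Zfp genes, together gave 9 (1.64%) and 15 (2.73%) of 550 peaks. Over all promoter peaks these shares were 1.33% and 1.45%, so the share toward mLN was near that of all peaks. The median difference was 0.034, beside 0.053 over all promoter peaks. No forkhead promoter among 24 and 1 of 359 promoters of KRAB and other Zfp genes, Zfp120, was a member.

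**Figure D2:**
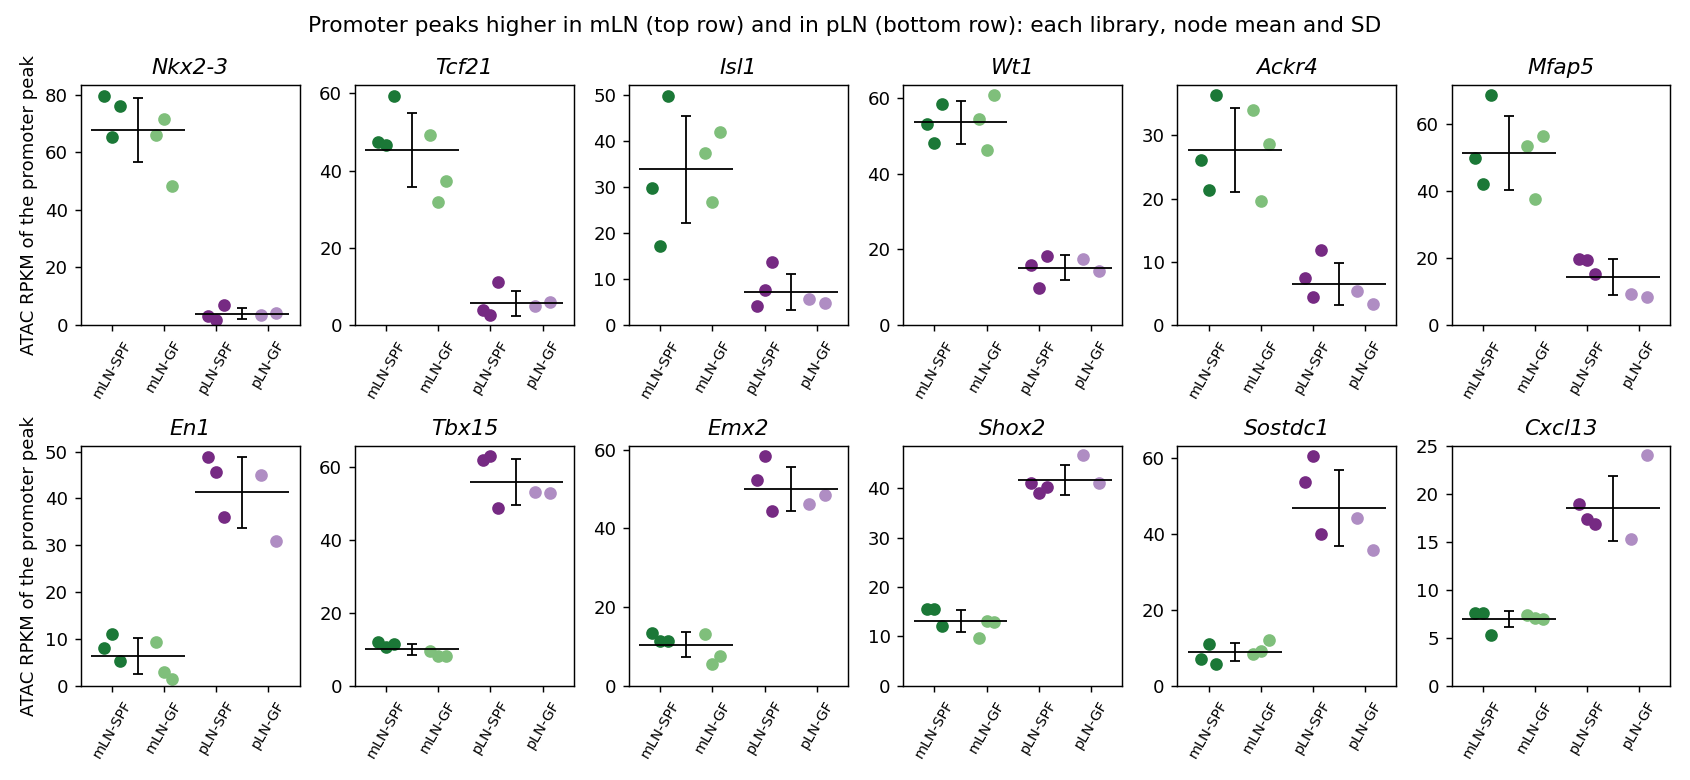
ATAC RPKM of 12 promoter peaks in every library, by group, with the node mean (line) and SD (bar) over 6 mLN and 5 pLN libraries, for genes named in the text; for Tbx15 the stronger peak is drawn. Nkx2-3 runs from 48.2 to 79.5 in mLN and from 1.7 to 6.8 in pLN. In no panel do the mLN and pLN libraries overlap, which the selection rule requires.

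Genes of signaling pathways were found in both lists, whereas the secreted antagonists named here were higher in pLN. Over all promoter peaks, 1.33% were members higher in mLN and 1.45% members higher in pLN. These shares were 3.17% and 3.17% in the BMP, GDF and TGF-beta list and 0.0% and 5.26% in the Wnt list. They were 2.15% and 3.23% in the growth factor list and 2.63% and 5.26% in the Hedgehog and Notch list. The retinoic acid and prostaglandin list had 5.13% and 5.13%. Each of these shares rests on few peaks. Sostdc1, which encodes a secreted antagonist of BMP and Wnt ligands (chr12:36313993-36314245), had 6.9, 10.9 and 5.6 RPKM in mLN-SPF, 8.3, 9.2 and 12.1 in mLN-GF, 53.6, 60.5 and 40.0 in pLN-SPF and 44.2 and 35.7 in pLN-GF. The highest mLN library was well below the lowest pLN library (difference -2.29). Of 63 promoter peaks of BMP, GDF and TGF-beta genes, 2 were higher in mLN, Smurf1 (1.15), a ubiquitin ligase that acts on SMAD proteins, and the ligand gene Bmp7 (1.04), and 2 were higher in pLN, Sostdc1 and Smad3. Among 57 Wnt peaks, none was higher in mLN and 3 were higher in pLN, the secreted antagonist gene Sfrp1 (-0.89), the R-spondin receptor gene Lgr4 (-0.75) and the receptor gene Fzd1 (-0.62). Growth factor genes split, with Met (1.24), the hepatocyte growth factor receptor, and the ligand gene Pdgfd (0.92) toward mLN and Angpt1 (-0.85), Angpt2 (-0.76), ligands of the endothelial receptor TIE2, and Fgf14 (-0.95) toward pLN, of 93 peaks. In the Hedgehog and Notch list of 38 peaks, Maml3 (0.99) was higher in mLN and Notch1 (-0.73) and Maml2 (-0.68) in pLN; MAML proteins are coactivators of Notch. Of 39 peaks of retinoic acid and prostaglandin genes, Aldh1a1 (0.69) and Aldh1a3 (0.67), both retinaldehyde dehydrogenases, were higher in mLN, and Ptger2 (-0.73), a prostaglandin E2 receptor gene, and Pla2g4a (-0.63), a phospholipase that releases arachidonic acid, in pLN.

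Of 212 peaks of guidance and adhesion genes, 8 (3.77%) were higher in mLN and 16 (7.55%) in pLN, beside 1.33% and 1.45% of all promoter peaks. Sema3e, which encodes a secreted semaphorin, had 17.9 to 35.0 RPKM in mLN and 2.7 to 6.4 in pLN (difference 2.22). It was followed by the adhesion receptor genes Adgrv1 (1.72), Adgrd1 (1.5) and Adgrg1 (1.12), the repellent gene Slit2 (1.14) and the ephrin receptor gene Epha2 (1.02). Higher in pLN were Lingo2 (-1.15), Dsc2 (-1.14), a desmosomal cadherin, Lingo4 (-1.06), the gap junction gene Gja1 (-0.82) and the netrin receptor gene Unc5c (-0.80). The Slit receptor gene Robo2 was higher in pLN (-0.66), with 7 of 17 distal peaks toward pLN and none toward mLN. Of 229 peaks on the list of matrix genes and matrix enzymes, which also took in serpin genes, 8 (3.49%) were higher in mLN and 10 (4.37%) in pLN. Among those higher in mLN were the microfibril gene Mfap5 (1.82), the proteoglycan gene Lum (1.38), the serpin gene Serpinb6a (1.20), Col4a1 (1.06) and Efemp1 (0.95). The pLN side was led by Col4a1 (-1.34), Col13a1 (-1.10), the serpin genes Serpina1e (-0.99) and Serpinb8 (-0.87), Thbs2 (-0.78), a thrombospondin, and Col11a1 (-0.78). Col4a1, a chain of basement membrane collagen, was the only gene with members in both directions. Its peak at 974 bp from the nearest annotated TSS (chr8:11280630-11281220) had 32.2 to 48.7 RPKM in mLN and 15.8 to 27.1 in pLN, and its peak at 28 bp from a TSS (chr8:11279307-11279628) had 4.4 to 25.6 and 27.2 to 45.7. Neither lay within 1 kb of the 5′ start of the gene, and the gap between them was 1002 bp.

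Both immune lists held more members higher in pLN than in mLN, while the lists as a whole had median differences near 0 (-0.023 for chemokine, cytokine and surface genes, -0.001 for innate sensing and interferon response). Cxcl13, which encodes the B cell attracting chemokine of follicles (chr5:95956874-95957338), had 7.5, 7.5 and 5.3 RPKM in mLN-SPF, 7.4, 7.0 and 7.0 in mLN-GF, 18.9, 17.4 and 16.9 in pLN-SPF and 15.2 and 24.1 in pLN-GF. All pLN libraries lay at least at 15.2 RPKM and all mLN libraries at or under 7.5 (difference -1.28), and 5 of 14 distal peaks of Cxcl13 met the rule toward pLN. Ackr4, a scavenger of the homeostatic chemokines CCL19 and CCL21 (chr9:104102241-104102628), had 26.1, 21.4 and 36.3 RPKM in mLN-SPF, 34, 19.6 and 28.7 in mLN-GF, 7.4, 4.4 and 11.8 in pLN-SPF and 5.3 and 3.3 in pLN-GF. Here the order was reversed, with every mLN library above every pLN library (difference 2.02). Over the list of 145 chemokine, cytokine and surface gene peaks, 2 (1.38%) were higher in mLN, Ackr4 and the TWEAK receptor gene Tnfrsf12a (0.62), and 7 (4.83%) in pLN, beside 1.33% and 1.45% of all promoter peaks. Those higher in pLN were Cxcl13, Il16 (-1.06), a chemoattractant cytokine, H2-M2 (-1.04), an MHC class I gene, Ccl9 (-0.91), a chemokine, Bst1 (-0.86), Cd180 (-0.80), a Toll-like receptor homolog, and Tnfsf8 (-0.73), the CD30 ligand. Among 142 peaks of innate sensing, NF-kB and interferon response genes, Ifi27l2a (1.29), an interferon-induced gene, was higher in mLN. Tnip1 (-0.98), an inhibitor of NF-kB signaling, and the interferon-induced GTPase genes Gbp5 (-0.82), Iigp1 (-0.81) and Gbp6 (-0.60) were higher in pLN. The shares of this list were 0.7% toward mLN and 2.82% toward pLN. Acod1, which makes itaconate in activated macrophages, had 1.2 to 8.9 RPKM in mLN and 16.6 to 35.4 in pLN (difference -2.11), and Reg3g, an antimicrobial lectin of the gut epithelium, had 0.0 to 8.5 and 12.6 to 26.3 (-1.71).

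Other members with large differences had varied functions, and several had few reads. Toward mLN these included Atp11a (2.87) and Atp8b4 (2.47), phospholipid flippases, Glrb (2.59), the beta subunit of the glycine receptor, Stmn4 (2.43), a microtubule regulator, and Slc45a4 (2.04), a solute carrier. G protein-coupled receptor genes among them were Gpr19 (2.81), Htr2b (2.30), a serotonin receptor, and Gpr17 (2.24). Also among the first 20 were C77080 (2.39), 1500009C09Rik (2.37), the olfactory receptor gene Olfr267 (2.33), Pram1 (2.27), an adaptor of myeloid cells, Sbsn (2.10), an epidermal secreted protein, Wwp2 (2.10), a ubiquitin ligase, Ankrd29 (2.07) and 1700019D03Rik (2.05). The Glrb peak is short (chr3:80913561-80913681) and held 0 to 25 reads per library, and those of C77080 and Stmn4 held 0 to 24 and 0 to 43, compared with 6 to 177 for Nkx2-3. Toward pLN they were Galnt9 (-2.06), an enzyme of O-linked glycosylation, Unc93a2 (-1.79), Unc93a (-1.46), the olfactory receptor genes Olfr107 (-1.75), Olfr459 (-1.49) and Olfr1121 (-1.29), Arhgdib (-1.53), a guanine nucleotide dissociation inhibitor of blood cells, Zmat4 (-1.44), 2610528A11Rik (-1.42) and Olfm4 (-1.34), an olfactomedin of gut crypts. The peak is assigned to these genes by distance, and 123 of the 343 members lay within 1 kb of the start of an alternative transcript and not of the 5′ start of the gene; Atp11a, Gpr19, Slc45a4, Galnt9 and Arhgdib were among them.

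The broader lists of transporters and enzymes had members in both directions in like numbers. Channels and transporters gave 2.42% toward mLN and 2.66% toward pLN, beside 1.33% and 1.45% of all promoter peaks. G protein-coupled receptors and their regulators gave 3.61% and 5.67%, metabolic genes 2.45% and 3.27%, and cytoskeleton genes 0.69% and 2.07%. Of 414 peaks of ion channels and transporters, 10 were higher in mLN, led after the flippases and Slc45a4 by Ano3 (1.53), Cacnb4 (1.35) and Slc24a2 (1.25), and 11 in pLN, led by Trpm1 (-1.05), Slc16a7 (-0.89), Aqp9 (-0.81), Gabrg1 (-0.77), Abcb1b (-0.75) and Slc7a7 (-0.73). Of 194 peaks of G protein-coupled receptors and their regulators, 7 and 11 were members; besides those above, Adcy2 (1.38), Gpr39 (1.13) and Adcy7 (1.06) were higher in mLN. The phosphodiesterase genes Pde1b, with peaks at -1.07 and -0.75, and Pde7b (-1.05), and the receptor genes Tacr1 (-1.03) and Htr1b (-0.95), for substance P and serotonin, were higher in pLN, as was Rgs16 (-0.88). Metabolic genes gave 6 and 8 of 245 peaks, with Pgm2 (1.65), Pfkp (1.58), a phosphofructokinase, Apol7a (1.52) and Fads6 (0.70) toward mLN and Galntl5 (-1.22), Cyp2f2 (-0.97), Akr1c13 (-0.89), Fabp7 (-0.85) and Ggt6 (-0.67) toward pLN. Cytoskeleton genes gave 2, Myl3 (1.14) and Arhgap22 (0.71), and 6 of 290, with Limch1 (-1.20), Dtna (-0.82), Rhobtb1 (-0.78), Dnah9 (-0.75), Cav2 (-0.66), a caveolin, and Acta2 (-0.66). Among 496 promoters of ribosomal, proteasomal, mitochondrial and basic transcription genes, Mrpl22 (0.87) was the only member, and the list median was 0.112.

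Marker genes of stromal subsets were set beside these lists, since the sort did not divide the subsets; in such bulk samples, fewer cells of a type and a less open promoter per cell cannot be told apart. The labelled cell type was checked first. The 10 promoter peaks of stromal genes, among them Pdgfra, Pdgfrb, Col1a1, Col3a1, Il7 and Vcam1, summed to 354 to 494 RPKM in every library, and none was a member. Of 7 blood endothelial peaks (summed 120 to 181 RPKM) and the 1 hematopoietic peak, Coro1a (13.8 to 42.1 RPKM), none was a member either, and neither Pecam1 nor Ptprc had a promoter peak, nor did Pdpn itself. Of 21 promoter peaks of CD34+ stromal cell genes, 5 (23.8%) were higher in mLN and 0 in pLN, beside 1.33% and 1.45% of all promoter peaks. They were Mfap5, Ly6c1 (1.17), a surface antigen, Efemp1, a fibulin, Anxa3 (0.91), an annexin, and Has1 (0.73), a hyaluronan synthase. The Mfap5 peak had 49.7, 42.2 and 68.6 RPKM in mLN-SPF, 53.5, 37.5 and 56.5 in mLN-GF, 19.8, 19.4 and 15.2 in pLN-SPF and 9.1 and 8.4 in pLN-GF. The lowest mLN library, mLN-GF replicate 2, was still well above the highest pLN library. The summed level of the whole list, its 5 members included, was 843 to 1000 RPKM in mLN and 714 to 813 in pLN, and its median difference was 0.273. The promoters of Cd34 (0.58) and Dpp4 (0.63) missed the rule.

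The organizer and marginal reticular cell list had 0 members higher in mLN and 4 of 10 (40.0%) higher in pLN, Cxcl13, Dsc2, Cyp2f2 and Bst1. The shares over all promoter peaks, 1.33% and 1.45%, stand beside this list and those that follow. The list median was -0.41, and 30.0% of its peaks leaned toward mLN, among them Tnfsf11 (0.36), which missed the rule. The list summed to 200 to 244 RPKM in mLN and 274 to 315 in pLN. Each sum here includes the member peaks, so the rule itself set part of each gap. Of 13 perivascular and smooth muscle peaks, 2 (15.4%) were higher in pLN, Acta2, smooth muscle actin, and Kcnj8 (-0.66), a potassium channel of pericytes. That list summed to 317 to 389 RPKM in mLN and 444 to 520 in pLN (median difference -0.456). The promoter of Rgs5, another pericyte gene, differed by -1.11 with overlapping libraries. Among 16 T zone reticular cell peaks, Bst1 was the only member (6.25%), and it is on the organizer list too. The median of the T zone list was -0.176, and 6.2% of its peaks leaned toward mLN. Cxcl9 (-1.53) overlapped between the nodes. Single members came from the lymphatic endothelial list (Ackr4, of 3 peaks, sum 62.5 to 115 RPKM in mLN and 35.9 to 78.7 in pLN) and the mesothelial list (Wt1, of 3, sum 76.0 to 102 and 32.9 to 59.7). The other peaks of these lists differed less, Prox1 by 0.14 and Flt4 by 0.35, and Bnc1 by 0.44 and Nkain4 by 0.27. What part these subsets had in the node differences was not tested.

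Members were unlike most promoters in sequence, a property the rule did not use. The ratio of observed to expected CpG had a median of 0.409 in members higher in mLN and 0.371 in members higher in pLN, against 0.748 over all promoter peaks and 0.234 over 28950 distal peaks, which lie over 1 kb from a TSS. A ratio of 0.6 or more was found at 32.9% and 23.5% of members and at 75.8% of all promoter peaks. The peaks were also narrower, with medians of 404.5 and 685 bp against 858.5 bp, and fewer of them held a TSS, at 62.2% and 67.0% against 89.7%. Transcription factor genes were found on both sides of that ratio. En1 (0.77), Tbx15 (0.71 at the stronger peak), Shox2 (0.69), Tbx18 (0.85), Twist1 (0.86), Isl1 (0.90), Sox11 (0.95) and Wt1 (0.76) had ratios above it, whereas Nkx2-3 (0.575), Tcf21 (0.45), Zbtb38 (0.40) and Zbtb43 (0.22) lay below it, as did Cxcl13 (0.19), Mfap5 (0.12), Ackr4 (0.24) and Sostdc1 (0.32). The 54 and 42 members with a ratio of 0.6 or more had median differences of 0.985 and 0.763 in size, and the 110 and 137 others 1.30 and 0.873.

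**Figure D3:**
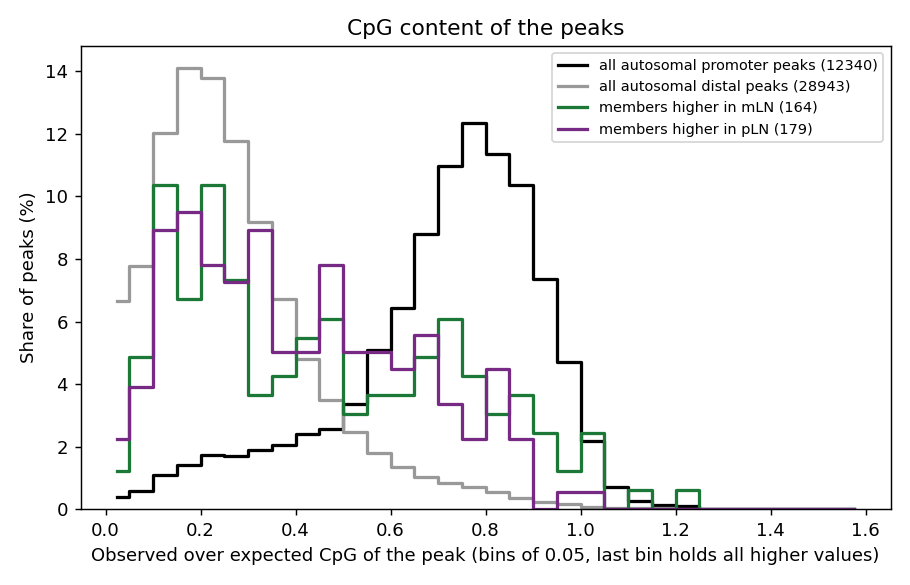
Share of peaks (%) by observed over expected CpG of the peak, in bins of 0.05, for members higher in mLN (164), members higher in pLN (179), all autosomal promoter peaks (12340) and the autosomal distal peaks for which the ratio is defined. Both member curves lie mostly at low ratios, with medians of 0.409 and 0.371, whereas all promoter peaks center on 0.748.

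Short motifs were counted on both strands of the 300 bases around each peak center. The AP-1 letters TGANTCA were present in 15.2% of members higher in mLN, 9.5% of members higher in pLN and 4.8% of all promoter peaks. In distal peaks chosen by the same rule these shares were 33.7% for mLN, 21.7% for pLN and 24.2% of all distal peaks. The nuclear receptor letters AGGTCA were present in 25.6% and 17.3% of members and 10.4% of promoter peaks, the TEAD letters GGAATG in 18.9%, 11.2% and 10.3%, and the forkhead letters TGTTTAC in 1.8%, 6.1% and 1.8%. The GC box GGGCGG was less common in members (40.2% and 34.6%) than in all promoter peaks (64.7%), as were the ETS letters CCGGAAG (3.7% and 2.8% against 13.4%). The homeobox core TAATTA was present in 4.3% and 2.2% of members and 1.3% of promoter peaks. GC content differed between these sets too, with medians of 56.2% and 54.3% in members and 62.2% in all promoter peaks, and its part in these shares was not tested.

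Distal peaks near the member genes were examined next. Among distal peaks with a member gene as the nearest gene, 115 of 477 near genes with members higher in mLN met the rule toward mLN and 24 toward pLN, and 33 and 169 of 735 did so near genes with members higher in pLN. Over all distal peaks the rule took 11.1% toward mLN and 10.2% toward pLN, that is 3199 and 2941 peaks. Single genes varied, and not all named genes had distal peaks in the direction of their promoter. Of 3 distal peaks near Emx2, 1 met the rule toward pLN, and of 3 near Twist1, 0 met it. Near Smad3, a member higher in pLN, 2 of 9 met it toward mLN and 0 toward pLN. Near Bmp7, a member higher in mLN, 0 of 2 met it toward mLN and 1 toward pLN. Among neighbouring members less than 100 kb apart, 16 of 17 pairs had the same direction, and the pair of Col4a1 peaks was the exception. Many of these pairs were 2 peaks of 1 gene, some close together, such as Stmn4 (gap 526 bp), Lsp1 (785 bp) and Arhgdib (942 bp). The count therefore does not describe agreement between different genes alone. Pairs of different genes included Hoxd3 and Hoxd11, with a gap of 53528 bp, Olfr1120 and Olfr1121, and Fabp7 and Smpdl3a. Differences within 1 gene were 1.73 and 1.55 for Cmah, 1.66 and 0.77 for Lsp1, -1.53 and -0.67 for Arhgdib, and -0.93 and -0.61 for Gcnt2. These distal and neighbouring differences are the same contrast in the same libraries.

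The node difference was also looked at within each housing. In members higher in mLN the median was 1.11 in SPF mice and 1.28 in GF mice, and 64 of 164 peaks had the larger difference in SPF mice. In members higher in pLN the medians were 0.865 and 0.852 in size, and 87 of 179 were larger in SPF mice. Nkx2-3 differed by 4.09 in SPF and 3.71 in GF mice, En1 by -2.33 and -3.07, Tbx15 by -2.26 and -2.49, and Sostdc1 by -2.60 and -1.92.

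**Figure D4:**
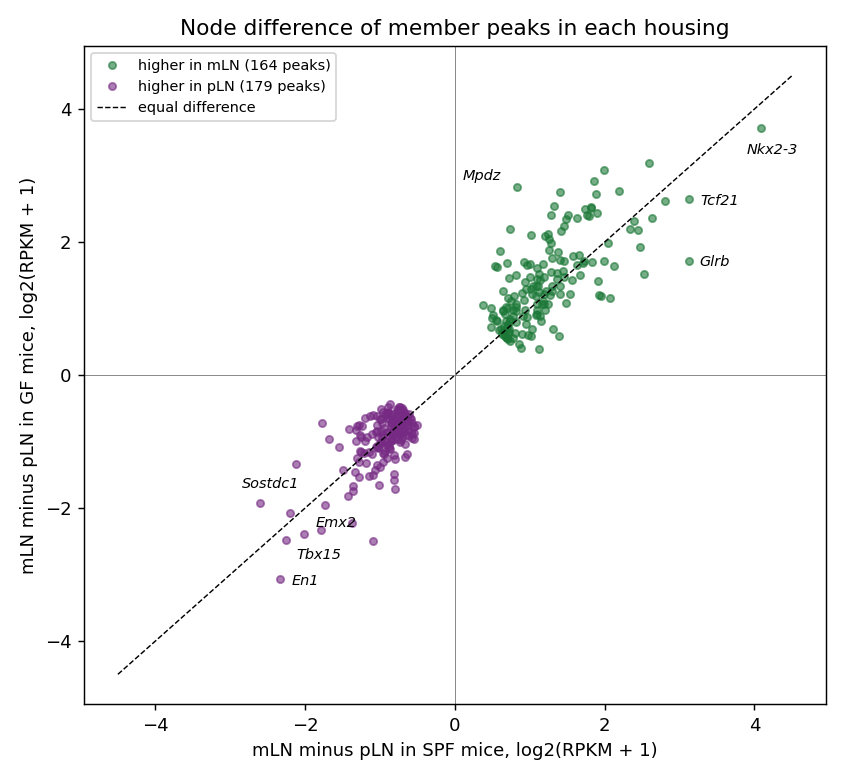
Difference of node means, mLN minus pLN, on log2(RPKM + 1), in SPF mice (x axis) against GF mice (y axis) for the 164 members higher in mLN and the 179 higher in pLN, with the line of equal difference. Nkx2-3 lies farthest out, at 4.09 and 3.71, and Mpdz farthest above the line among the labelled peaks, at 0.83 and 2.83.

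Housing was not used to choose the members and was tested, with a limit. The rule asks all SPF and GF libraries of a node to lie beyond those of the other node. That disfavours peaks with a large housing change within a node, which bears on the lack of calls below. Housing was fitted with limma over all 42424 peaks. A call needed an adjusted p (Benjamini-Hochberg) under 0.05 together with a change of 2-fold or more. None of the 343 members was called between SPF and GF mice averaged over the nodes, where 28 of all peaks (0.066%) were called, within mLN (1 peak, 0.00236%) or within pLN (3 peaks, 0.00707%). None was called for the node by housing interaction either, where no peak was (0.0%). With so few calls over all peaks, the lack of calls does not set the members apart. At an unadjusted p under 0.05 there were 16, 4, 20 and 18 of the 164 members higher in mLN in these comparisons. There were 7, 10, 0 and 2 of the 179 members higher in pLN, and 4736, 3441, 2636 and 1485 of all 42424 peaks. The counts of the 2 directions were thus unlike within pLN and for the interaction. Peaks of a list share the same libraries, with 2 of pLN-GF, and 55 of the members higher in mLN stayed under 10 RPKM in pLN. Whether the directions differ in their response to housing was therefore not tested by these counts. Averaged over the nodes, the share was 6.71% of members and 8.59% of all promoter peaks. Limma voom on recovered reads also called no member. Changes, SPF minus GF averaged over the nodes, ran from -0.96 to 0.82 in members higher in mLN (median 0.086, median SE 0.209) and from -0.72 to 0.58 in members higher in pLN (median -0.059, median SE 0.192), and none reached 1. Beside the interaction stands that complete separation of the nodes favours peaks whose node difference is alike in both housings.

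The smallest housing p among members was that of Usp2, a deubiquitinase gene, at a transcript start other than its 5′ start. It had 35.9, 46.3 and 39.4 RPKM in mLN-SPF, 45.7, 43.4 and 59.2 in mLN-GF, 14.9, 14.8 and 14.6 in pLN-SPF and 33.3 and 31.3 in pLN-GF. The pLN-SPF libraries were all lower than the pLN-GF libraries, whereas the mLN libraries overlapped between housings, and the averaged change was -0.68 (SE 0.14, limma adjusted p = 0.0974). Mpdz, which encodes a scaffold protein of cell junctions, had the smallest interaction p (-2.0, SE 0.49, limma adjusted p = 1.0). Its peak had 28.6, 36.4 and 37.8 RPKM in mLN-SPF, 47.7, 51.8 and 27.4 in mLN-GF, 14.0, 18 and 25.8 in pLN-SPF and 3.2 and 7.3 in pLN-GF. With 3 to 59 reads per library, its pLN-GF values rest on few reads, and the pLN-GF group on 2 libraries.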

How the data were processed

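ATAC-seq libraries of sorted stromal cells were analysed from the deposited peak table. Per the methods and labels, the authors mapped reads to mm10 (GRCm38) with STAR 2.5.3a, allowing single hits only, and took out duplicates (Picard). Broad MACS2 peaks of each replicate were joined where they overlapped, without blacklisted regions, and DESeq2 1.22 gave size factors; no shift of insertion sites was stated. The deposited values are RPKM per merged peak and library, made by the authors. Of 42434 entries, 10 repeated a peak. The pLN-GF column numbered 2 was a plain average of the remaining 5 pLN columns (relative tolerance 1e-09) and was not used, as were the authors' fold changes and adjusted p-values of 4 comparisons and the deposited gene names; 1 column belonged to no sample. Reads recovered from the RPKM were whole within 0.02 in 100% of values.

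Housing was tested with limma 3.58.1 (R 4.3.3, trend) on log2(RPKM + 1) with 4 group means, tested on simulated data. Members, lists and rules were chosen with earlier results of these data known. Named were, per direction, the 20 genes with the largest difference, all transcription factor members, up to 6 members of each other list, and 3 peaks on each side of the threshold; sequences came from up to 5 members per direction by size, with windows over UTRs or coding exons left out, and some of those lying mostly inside the peak are shown, a choice made after their values were seen. Some named genes and sequences are not reported here. Genome sequence was read with pysam 0.24.0.
Alternatives were another pseudocount, filter, scaling, TSS set, minimum difference, recovered reads with limma voom, a replicate block and leaving out libraries.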

Additional observations from a re-analysis of the deposited data

How the results depend on the processing

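Member counts of 164 and 179 became 108 and 58 with a minimum difference of 1.0, 102 and 120 for peaks that overlap a TSS, 105 and 122 with the 5′ starts of genes alone, and 311 and 264 without both mLN libraries numbered 2; the cause was not tested beyond the fewer peaks or libraries these settings admit. A pseudocount of 0.5 (167 and 181), rescaled libraries (165 and 175) and separation within each housing (182 and 175) moved the counts less, although the last shared only 143 and 143 peaks with the member lists. Leaving out 1 library gave 167 to 271 and 173 to 228, the highest without pLN-SPF replicate 3. No member was called for housing under any alternative run. Over all peaks, calls averaged over the nodes went from 28 to 158 with voom and to 6 with promoter peaks alone, calls within mLN from 1 to 2 with voom and 3 with promoter peaks alone, and calls within pLN from 3 to 5 with a pseudocount of 0.5 and 51 with voom. Leaving out 1 library gave 3 to 49 averaged calls (lowest without pLN-GF replicate 3, highest without pLN-SPF replicate 3), 0 to 3 within mLN, 2 to 7 within pLN and 0 to 1 for the interaction. With the replicate block the counts were 24, 2, 5 and 0; same-numbered libraries correlated between -0.152 and 0.271 (those numbered 2 between 0.196 and 0.271), and since some pairs were negative and not every library correlated best with its own number, the numbers were not taken as pairs. Depth limits the short peaks, some with 0 reads in a library.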
